A study of Mus musculus with 8 samples.

Results

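The 10 genes described here encode the alpha chain of the interleukin 7 (IL-7) receptor, the transcription factors FOXO1 and FOXO3, and other genes tied to the resting state of naive T cells. They were taken as a fixed list of symbols: Il7r, Foxo1, Foxo3, Foxp1, Bach2, Satb1, Ets1, Pik3ip1, Dapl1 and Igfbp4. All 10 were present among the 14042 genes of the deposited tables, and all stood far above the low end of the values, so none was lost to a filter. Expression was measured by RNA sequencing in 8 mouse libraries, 2 in each of 4 groups. Naive CD4 T cells, CD44 low by flow sorting, were of wild type (WT) genotype or of the genotype C5aR1-/- (KO), in which a receptor for complement C5a is deleted. The T follicular helper (TFH) groups are CXCR5 positive, PD1 high CD4 cells taken from the spleens of (bxd)F1 recipients. These recipients had been given spleen cells from WT or C5aR1-/- donors, depleted of CD8 cells, 7 days earlier, so the TFH groups share the transfer and the naive groups have none. The labels give no age, no sex and no number of animals behind a library, and the naive cells are not stated to have passed through an F1 host.

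IL-7 keeps naive T cells alive between encounters with antigen. Its receptor pairs the alpha chain encoded by Il7r with the common gamma chain encoded by Il2rg and signals through JAK1, JAK3 and STAT5. FOXO1 is a transcription factor that switches on Il7r and the homing genes Ccr7 and Klf2. Signals through the antigen receptor activate PI3K and AKT, which phosphorylate FOXO proteins and send them out of the nucleus. Such control acts on the protein and need not show in the level of the FOXO transcripts.

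Values below are deposited log2 values, on a scale that is not corrected for gene length, so levels are compared between libraries and not between genes. Differences are log2 differences of group means ± standard error (SE) from limma's linear model over all genes, with n = 2 libraries per group. A gene was said to rise or fall where the Benjamini-Hochberg adjusted p was below 0.05. In these sorted bulk samples, fewer cells expressing a gene and less RNA per cell cannot be told apart. The depth of the libraries is unknown.

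The libraries did not follow their labels in every marker. Il21, the cytokine typical of TFH cells, lay at 9.58 to 10.40 in the TFH libraries and at 7.31 to 8.19 in the naive libraries. Cd44, which should be low in naive cells, lay at 12.53 to 13.04 in the naive libraries and at 11.97 to 12.11 in the TFH libraries. Cxcr5 overlapped between the labels, and groups are therefore called by their labels. Markers of other cells were present: over 19 measured B cell markers, the median gene stood at 0.50 and 2.04 above its 8-library mean in the second TFH WT and TFH KO libraries (replicate 2). It stood at -1.45 and -1.60 in replicate 1 of each and between -0.51 and 0.68 in the naive libraries. Of the 19 measured myeloid markers the median stood at 0.54 to 2.16 in the naive libraries, highest in naive WT replicate 1, and at -1.82 to -0.01 in the TFH libraries. For 15 CD8 T and NK cell markers it stood at 0.17 to 0.69 in the naive and -1.54 to 0.02 in the TFH libraries. Across all genes the root-mean-square difference was 0.276 between the first and 0.265 between the second libraries of the TFH groups, across genotypes, and 0.312 within TFH WT and 0.415 within TFH KO. C5ar1 was not analysed here, which leaves the genotype labels unchecked on the deleted gene.

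On the mouse build GRCm38 (GENCODE vM21) the members are protein-coding genes on 9 chromosomes, and none lies on chromosome 7, which carries C5ar1. Il7r spans 15:9505788-9530176 on the minus strand and Foxo1 spans 3:52268336-52353221 on the plus strand. RefSeq promoter windows (GRCm38.p6, 250 bases before to 50 after each start) were found for 9 of the 10 members; Ets1 had none. They were searched on both strands for 4 motifs that do not overlap in these windows: GTAAACA (forkhead proteins such as FOXO), TTCNNNGAA (STAT5), TGACTCA (the core shared by BACH proteins and AP-1) and ACCGGAAGT (ETS proteins). The forkhead letters were present in 1 member window, that of Dapl1, and in 3.65% of all 32851 windows. The STAT5 letters were present in the windows of Il7r and Bach2 and in 8.30% of all windows. No member window held the BACH core (5.20% of all windows) or the ETS letters (1.10%). The windows with a match are shown up to the RefSeq start, in capitals where a motif matched, because they belong to members with unlike values below: Il7r and Dapl1 fell in WT and Bach2 did not. The Il7r stretch is 15:9529877-9530040 on the minus strand, between exons of the longer GENCODE gene model. The others are Dapl1 at 2:59484403-59484652 and Bach2 at 4:32417185-32417434, both on the plus strand. The Bach2 stretch lies outside exons but inside the longer GENCODE gene, which spans 4:32238804-32586108, and thus not upstream of that gene's start.
Il7r: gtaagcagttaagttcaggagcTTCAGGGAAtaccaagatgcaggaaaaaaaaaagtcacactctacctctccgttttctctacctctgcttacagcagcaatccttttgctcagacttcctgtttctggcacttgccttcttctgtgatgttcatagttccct
Dapl1: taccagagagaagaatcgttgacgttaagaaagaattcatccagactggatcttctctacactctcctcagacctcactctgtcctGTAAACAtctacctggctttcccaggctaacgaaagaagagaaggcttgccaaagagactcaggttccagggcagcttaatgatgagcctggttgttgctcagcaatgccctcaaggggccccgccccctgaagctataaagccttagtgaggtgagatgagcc
Bach2: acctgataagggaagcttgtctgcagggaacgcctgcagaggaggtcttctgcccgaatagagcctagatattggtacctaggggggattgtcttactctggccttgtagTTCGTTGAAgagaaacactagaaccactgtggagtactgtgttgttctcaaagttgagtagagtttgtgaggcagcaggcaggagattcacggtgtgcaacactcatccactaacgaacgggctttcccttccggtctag
The Il7r match begins at position -142 relative to the RefSeq start, that of Bach2 at position -140 and that of Dapl1 at position -164. A match of letters is a description and was not tested as a binding site.

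Libraries labelled TFH were compared with naive libraries of the same genotype, to ask how the resting-state genes stood after transfer and sorting. In WT, 5 of the 10 members fell (Il7r, Dapl1, Pik3ip1, Foxo1 and Ets1) and none rose, where 13.7% of all 14042 genes were called lower, 12.6% higher and 26.3% in either direction. In KO, 2 fell (Il7r and Pik3ip1) and none rose, where 10.4% of all genes were called lower, 9.12% higher and 19.5% in either direction. The falls in WT were largest in Il7r, Dapl1 and Pik3ip1 and smaller in the transcription factors Foxo1 and Ets1. The median member stood at -0.35 in WT and -0.05 in KO, against 0.01 and -0.01 for all genes. All 10 differences were negative in WT and 7 of 10 in KO. In an alternative scaling, libraries were shifted so that the median level of 17 T cell identity genes was equal. This moved the median of all genes to 0.40 in WT and 0.32 in KO. The identity genes' own median difference was -0.05 in WT and -0.17 in KO before the shift and 0.34 and 0.16 after it. The shift thus exceeded the median change of the genes it was based on. Under this scaling Il7r, Pik3ip1, Dapl1 and Foxo1 stayed negative in WT, Foxo1 at -0.08 and not called. In KO under that scaling Il7r fell. Foxo3 (0.69, adjusted p = 0.0181) and Igfbp4 (0.49, adjusted p = 0.0269) were called higher there, as were 4701 of all 14042 genes. Without the scaling Foxo3 and Igfbp4 stood at 0.36 and 0.15 in KO and were not called.

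**Figure D1:**
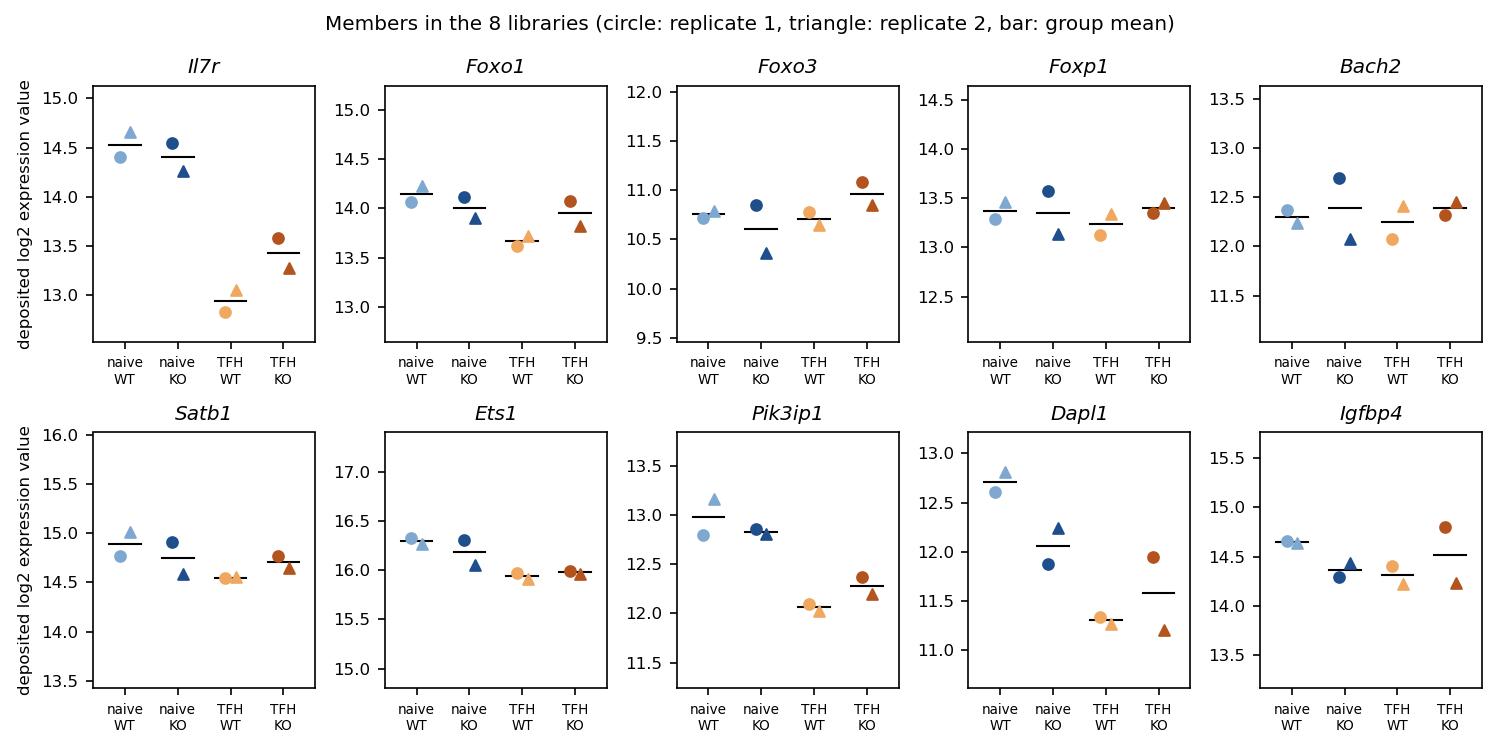
Deposited log2 values of the 10 members (vertical axes, each spanning the same 2.6 log2 units) in the 4 groups, with circles for replicate 1, triangles for replicate 2 and bars for group means. Il7r, Pik3ip1 and, by little, Ets1 are lower in all 4 TFH libraries than in all 4 naive libraries. The naive and TFH groups of the same genotype overlap for Foxo3, Foxp1 and Bach2.

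Il7r was at 14.40 and 14.66 in naive WT, 14.55 and 14.26 in naive KO, 12.83 and 13.05 in TFH WT, and 13.58 and 13.27 in TFH KO. All 4 TFH libraries were below all 4 naive libraries, and both TFH KO libraries were above both TFH WT libraries. Il7r fell by 1.59 ± 0.15 in WT (adjusted p = 4.048e-05) and by 0.98 ± 0.15 in KO (adjusted p = 0.00124), where its level was 1.97-fold lower. It was called in both genotypes under all 17 alternative settings, at -1.71 to -1.19 in WT and -1.13 to -0.64 in KO.

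Genes of the IL-7 pathway moved both ways. Of 17 measured, 5 rose and 2 fell in each genotype and 10 were not called, with a median of 0.06 in WT and 0.18 in KO. The kinase gene Pim1, induced by STAT5, rose by 2.21 ± 0.12 in WT and 2.22 ± 0.12 in KO. The survival genes Mcl1 and Bcl2 rose by 0.71 ± 0.10 and 0.84 ± 0.19 in WT and by 0.72 ± 0.10 and 0.96 ± 0.19 in KO. Nearer the receptor, Jak3 rose by 0.75 in KO, Stat5a by 0.32 in WT, and Cish by 0.41 in WT and 0.38 in KO. Without replicate 2 of both TFH groups these values were 0.50, 0.37, 0.32 and 0.39, and these rises were no longer called. The genes of the partner chain and of JAK1 fell. Il2rg fell by 0.38 ± 0.09 in WT and 0.37 ± 0.09 in KO, and Jak1 by 0.50 ± 0.11 and 0.36 ± 0.11. These falls were not called with T cell identity scaling, under which Il2rg in WT stood at 0.01. Il2rg in both genotypes and Jak1 in KO were also not called with ribosomal protein scaling or without replicate 2 of both TFH groups. Of 26 immediate early and heat shock genes, typical of stimulated or handled cells, 22 rose in WT and 21 in KO; their part in the Pim1 and Mcl1 values was not tested.

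Pik3ip1 encodes a membrane protein that inhibits PI3K and is abundant in resting T cells. It was at 12.80 and 13.16 in naive WT, 12.85 and 12.81 in naive KO, 12.10 and 12.03 in TFH WT, and 12.37 and 12.19 in TFH KO. The labels were again fully apart, with TFH KO between TFH WT and the naive groups. Pik3ip1 fell by 0.92 ± 0.13 in WT (adjusted p = 3.72e-04) and by 0.55 ± 0.13 in KO (adjusted p = 0.0107). The WT call held under all 17 settings, whereas the KO call ended without naive KO replicate 1 (-0.52, adjusted p = 0.0514) or TFH KO replicate 2 (-0.45, adjusted p = 0.08895). It also ended with T cell identity scaling (-0.21, adjusted p = 0.196), with ribosomal protein scaling (-0.42, adjusted p = 0.0506) and with both second TFH libraries omitted (-0.45, adjusted p = 0.122).

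The FOXO transcripts themselves changed little. Foxo1 was at 14.06 and 14.23 in naive WT, 14.11 and 13.90 in naive KO, 13.62 and 13.72 in TFH WT, and 14.07 and 13.83 in TFH KO. The WT groups were apart and the KO groups overlapped. Foxo1 fell by 0.47 ± 0.12 in WT (adjusted p = 0.0147), but was no longer called when naive WT replicate 2 was omitted (-0.39, adjusted p = 0.113), when TFH WT replicate 1 was omitted (-0.42, adjusted p = 0.09353), nor with ribosomal protein scaling (-0.41, adjusted p = 0.0660) or T cell identity scaling (-0.08, adjusted p = 0.617). In KO it differed by -0.06 with a 95% interval of -0.33 to 0.21. Foxo3, a second FOXO factor of T cells, was at 10.36 to 10.85 in the naive and 10.64 to 11.08 in the TFH libraries. It was not called in WT (-0.05, interval -0.38 to 0.29) or in KO (0.36, interval 0.02 to 0.70, adjusted p = 0.133), but was called higher in KO without naive KO replicate 1 (0.60, adjusted p = 0.02043). Foxo4, a further family member outside the list, stood at 0.10 ± 0.13 in WT and 0.14 ± 0.13 in KO and was not called.

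Of 23 PI3K and AKT genes that act upstream of FOXO, 2 rose and 4 fell in WT and 2 rose and 2 fell in KO. Phlpp1, a phosphatase that removes phosphate from AKT, rose by 0.81 ± 0.12 in WT and 0.63 ± 0.12 in KO. Sgk1, an AKT-related kinase that also phosphorylates FOXO proteins, rose by 0.47 ± 0.14 and 0.63 ± 0.14. Pik3cg, a PI3K catalytic subunit, fell by 0.37 ± 0.11 in WT, but stood at 0.02 with T cell identity scaling. The Sgk1 rise in WT was not called when both second TFH libraries were omitted (adjusted p = 0.0921). Akt1 stood at 0.07 ± 0.11 and -0.09 ± 0.11 and was not called.

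Known target genes of FOXO proteins moved both ways. Of 25 measured, 8 rose and 7 fell in WT, and 8 rose and 2 fell in KO. Among the homing and naive-cell targets in WT, S1pr1 fell by 0.59 ± 0.12, Lef1 by 0.74 ± 0.16 and Tcf7 by 0.32 ± 0.11, while Ccr7 at -0.03 ± 0.12 was not called. With T cell identity scaling none of these falls was called, and Tcf7 stood at 0.07. In KO, S1pr1 at -0.32 ± 0.12, Lef1 at -0.41 ± 0.16 and Tcf7 at 0.01 ± 0.11 were not called. Klf2, an activator of S1pr1, rose by 0.52 ± 0.11 in both genotypes, though not called in KO when both second TFH libraries were omitted (adjusted p = 0.0610). The largest rises were those of Irs2, an insulin signalling adaptor, by 3.17 ± 0.19 in WT and 4.14 ± 0.19 in KO, and of the stress gene Gadd45b by 3.08 ± 0.18 and 2.86 ± 0.18. Klf6 rose by 2.41 ± 0.11 and 2.46 ± 0.11, and Cited2 by 1.17 ± 0.10 and 1.37 ± 0.10. These risers moved with the immediate early and heat shock genes, whose median stood at 0.68 to 1.03 in the TFH and -1.02 to -0.67 in the naive libraries. Their part in the FOXO target values was not tested.

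**Figure D2:**
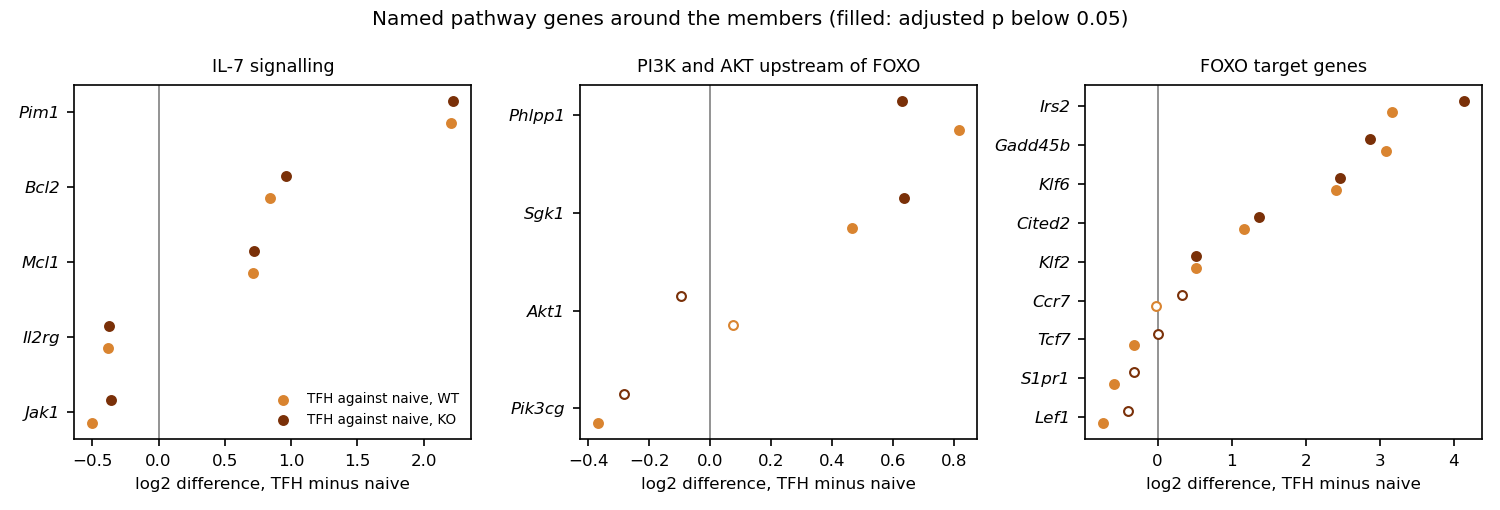
Log2 differences of TFH minus naive libraries (horizontal axes) for the named genes of the IL-7 pathway, of PI3K and AKT signalling and of the FOXO targets, in WT (light) and KO (dark), filled where the adjusted p was below 0.05. The Irs2 points at 3.17 and 4.14 and the Pim1 points at 2.21 and 2.22 stand farthest right in their panels, and the Akt1 points lie at 0.07 and -0.09.

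The remaining transcription factors differed less between labels. Ets1, an ETS factor needed for T cell survival, was at 16.33 and 16.26 in naive WT, 16.30 and 16.06 in naive KO, 15.97 and 15.91 in TFH WT, and 15.99 and 15.96 in TFH KO. All 4 TFH libraries were below all 4 naive libraries, although by little. Ets1 fell by 0.35 ± 0.10 in WT (adjusted p = 0.0278) and was not called in KO (-0.20 ± 0.10, adjusted p = 0.203). In WT it was not called without the mean-variance trend (adjusted p = 0.0726) or with ribosomal protein scaling (-0.28, adjusted p = 0.149). The WT call ended when any 1 of the 4 WT libraries was left out (adjusted p = 0.128 and 0.07415 for naive WT replicates 1 and 2, 0.08624 and 0.148 for TFH WT replicates 1 and 2), and with T cell identity scaling the value was 0.04.

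Satb1 encodes a chromatin organiser of T cells. It was at 14.77 and 15.01 in naive WT, 14.91 and 14.58 in naive KO, 14.54 and 14.55 in TFH WT, and 14.77 and 14.64 in TFH KO. The WT groups did not overlap and the KO groups did. Its difference was -0.35 ± 0.13 in WT (adjusted p = 0.0680) and -0.04 ± 0.13 in KO, and neither was called. In a fit of the compared groups alone, Satb1 in WT was called (adjusted p = 0.043).

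Bach2, a repressor that restrains effector differentiation, and Foxp1, a forkhead factor that keeps naive T cells quiescent, did not separate the labels. Bach2 was at 12.37 and 12.24 in naive WT, 12.70 and 12.08 in naive KO, 12.08 and 12.41 in TFH WT, and 12.32 and 12.45 in TFH KO. Its WT difference was -0.06 with an interval of -0.52 to 0.40, and the KO group means were equal to 2 decimals at 12.39, with an interval of -0.46 to 0.46. Foxp1 ranged from 13.13 to 13.57 in the naive and from 13.13 to 13.45 in the TFH libraries, with differences of -0.14 ± 0.14 in WT and 0.05 ± 0.14 in KO. Both genes are also expressed by B cells, and both were higher in replicate 2 than in replicate 1 of both TFH groups, as were the B cell markers. In both naive groups the B cell markers and Bach2 were higher in replicate 1. Foxp1 was higher in replicate 1 of naive KO but in replicate 2 of naive WT (13.46 against 13.29). With the B cell marker level as a covariate, Bach2 stood at 0.01 in KO and remained uncalled (adjusted p = 0.987). The part of B cells in the Bach2 and Foxp1 levels was not tested. These intervals leave room for differences of up to about the size of the Foxo1 fall.

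Dapl1 and Igfbp4 are transcripts of resting naive T cells, the second encoding a secreted binding protein of insulin-like growth factors. Dapl1 was at 12.61 and 12.81 in naive WT, 11.88 and 12.24 in naive KO, 11.34 and 11.27 in TFH WT, and 11.95 and 11.21 in TFH KO. The WT groups were far apart, and TFH KO replicate 1 lay between the naive KO libraries. Dapl1 fell by 1.41 ± 0.25 in WT (adjusted p = 0.00725), a 2.65-fold lower level, and was no longer called when TFH WT replicate 2 was left out (-1.37, adjusted p = 0.0618). In KO it was not called (-0.48 ± 0.25, adjusted p = 0.234), but fell by 0.85 without TFH KO replicate 1 (adjusted p = 0.00540). It was also called lower with the B cell marker level as a covariate (-0.49, adjusted p = 0.0134). Igfbp4 was at 14.66 and 14.64 in naive WT, 14.29 and 14.43 in naive KO, 14.41 and 14.22 in TFH WT, and 14.81 and 14.23 in TFH KO. It separated the WT labels by a small gap and was not called in WT (-0.34 ± 0.17) or KO (0.15 ± 0.17). With the B cell marker level as a covariate, it was called lower in WT (-0.38, adjusted p = 0.0105). The same held in a fit of the compared groups alone (-0.34, adjusted p = 0.0415). The KO difference turned to -0.13 without TFH KO replicate 1.

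**Figure D3:**
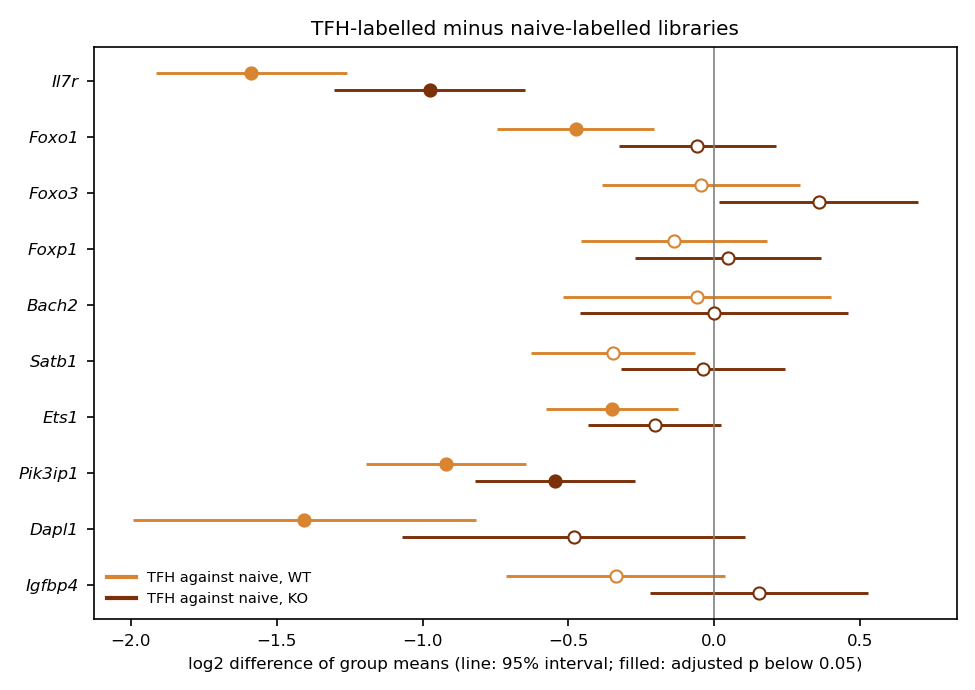
Log2 difference of TFH minus naive libraries for each member (points) with unadjusted 95% intervals (lines), in WT (light) and KO (dark), filled where the adjusted p was below 0.05. Il7r and Pik3ip1 are filled in both genotypes, Dapl1, Foxo1 and Ets1 in WT alone, and the difference between genotypes was not called for any member.

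The count of members called in WT was 3 without naive WT replicate 2, TFH WT replicate 1 or TFH WT replicate 2, and 4 when both second TFH replicates, with their higher B cell markers, were omitted. In KO, 1 member fell without TFH KO replicate 2 or without replicate 2 of both TFH groups, and 3 fell without TFH KO replicate 1. When naive KO replicate 1 was omitted, Il7r fell and Foxo3 was called higher. By group overlap, 7 members in WT had both TFH libraries below both naive libraries, as did 32% of all genes, and 3 members in KO (Il7r, Ets1 and Pik3ip1), as did 30.6% of all genes. No member had both TFH libraries above both naive libraries in WT (33.1% of all genes) or in KO (27.6%). The same 3 members had all 4 TFH libraries below all 4 naive libraries, as did 20.3% of all genes, and none had all 4 above (18.2%).

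Other genes of naive and quiescent T cells also split by direction. Of 36 measured genes outside the list, 7 rose and 12 fell in WT, and 11 rose and 7 fell in KO. The antiproliferative genes Tob2, Tob1 and Btg1 rose by 1.55 ± 0.11, 1.55 ± 0.15 and 0.89 ± 0.10 in WT and by 1.70 ± 0.11, 1.79 ± 0.15 and 1.08 ± 0.10 in KO. Txk, a T cell kinase of the Tec family, fell by 1.09 ± 0.11 in WT and 0.86 ± 0.11 in KO. Of 13 measured relatives and partner chains of the members, 4 rose and 3 fell in WT and 3 rose and 1 fell in KO. Ets2 rose by 1.46 ± 0.14 and 1.61 ± 0.14 and Igfbp7 by 2.54 ± 0.27 and 1.86 ± 0.27, while the ETS factor gene Fli1 fell by 0.68 ± 0.11 in WT (not called with T cell identity scaling). Foxp4 rose by 0.55 ± 0.12 and 0.41 ± 0.12.

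KO libraries were compared with WT libraries among the TFH groups, to ask whether donor C5aR1 loss changed the resting-state genes in transferred cells. All 10 members had a higher mean in TFH KO than in TFH WT, with a median of 0.21 against 0.00 for all genes, and none was called. limma called 0 of 14042 genes (0% of all genes), and 506 genes had an unadjusted p below 0.05, 2 of them members. Il7r differed by 0.49 ± 0.15 (unadjusted p = 0.00766, adjusted p = 1, 95% interval 0.16 to 0.82) and Foxo1 by 0.28 ± 0.12 (unadjusted p = 0.0455). Both TFH KO libraries lay above both TFH WT libraries for 6 members (Il7r, Foxo1, Foxo3, Foxp1, Satb1 and Pik3ip1), as they did for 16.5% of all genes. The other intervals included 0: Pik3ip1 stood at 0.22 (-0.05 to 0.50), Foxo3 at 0.26 (-0.08 to 0.60), Dapl1 at 0.27 (-0.32 to 0.86), Igfbp4 at 0.20 (-0.17 to 0.58), Foxp1 at 0.16 (-0.16 to 0.48), Satb1 at 0.16 (-0.12 to 0.44), Bach2 at 0.14 (-0.32 to 0.60) and Ets1 at 0.03 (-0.20 to 0.26). The TFH KO library with the higher value was replicate 1 for 8 members, and Dapl1 and Igfbp4 turned to -0.10 and -0.09 without it. Bach2 turned to -0.02 without TFH WT replicate 1. Markers of other cells also had higher means in TFH KO, with none called: 17 of 19 B cell markers (median 0.76), 15 of 15 CD8 T and NK cell markers (median 0.56) and 16 of 19 myeloid markers (median 0.27). With the B cell marker level as a covariate the median member stood at 0.27, and with both second TFH libraries omitted at 0.29, again with none called. The part of the CD8 T, NK and myeloid markers in these values was not tested.

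In naive cells, where KO and WT were compared without transfer, 9 of 10 members had a lower mean in KO, with a median of -0.14, and none was called. limma called 10 of 14042 genes (0.0712% of all genes, 0.0356% higher and 0.0356% lower), and 1 member had an unadjusted p below 0.05. The member was Dapl1 at -0.65 ± 0.25 (unadjusted p = 0.0348, adjusted p = 0.9998). Both naive KO libraries lay below both naive WT libraries for Dapl1 and Igfbp4, as they did for 11.2% of all genes. Marker lists differed beside them, with none called: 13 of 15 CD8 T and NK cell markers (median -0.37) and 16 of 19 myeloid markers (median -0.71) had lower means in naive KO, and 16 of 19 B cell markers (median 0.69) and 15 of 17 activation genes (median 0.15) had higher means. With the B cell marker level as a covariate the median member stood at -0.12, and the part of the other lists was not tested. The naive KO libraries differed from each other: replicate 1 was the higher for 8 members, by 0.62 in Bach2, the widest gap of that group. Without naive KO replicate 2, the values of Il7r, Foxo3, Foxp1, Satb1 and Ets1 were 0.02, 0.10, 0.20, 0.02 and 0.01.

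**Figure D4:**
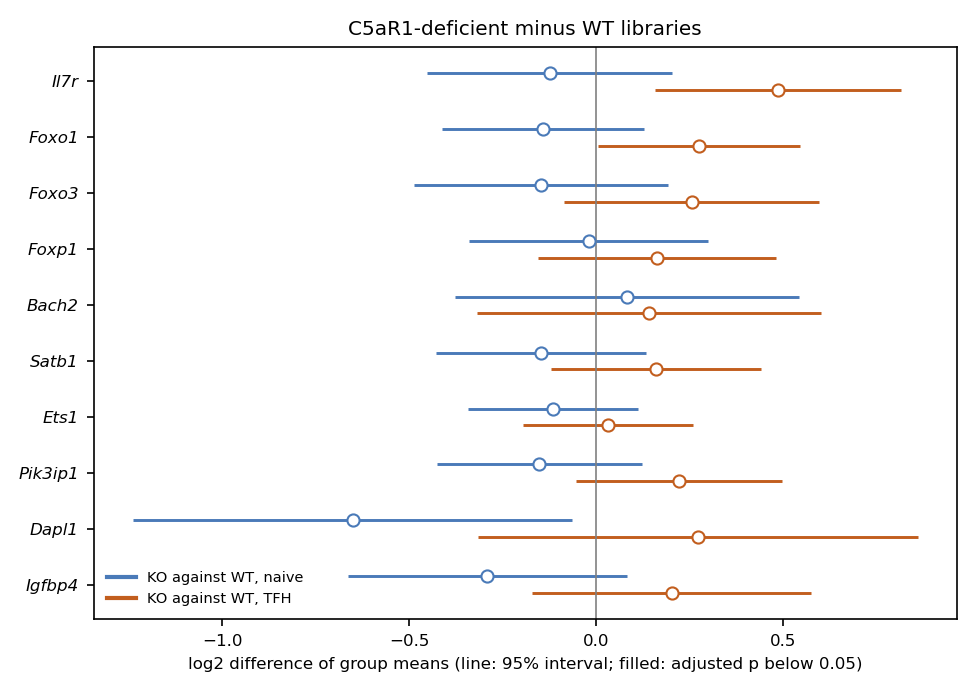
Log2 difference of KO minus WT libraries for each member (points) with unadjusted 95% intervals (lines), in naive (blue) and TFH (orange) libraries. No point is filled, since none was called; all 10 TFH points lie right of 0 and 9 of 10 naive points left of it.

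The interaction term asked whether the TFH against naive difference was larger in one genotype. The term was positive for all 10 members, and none was called (2 of 14042 genes were, or 0.0142%, with 0.00712% higher and 0.00712% lower), with 614 genes and 3 members at an unadjusted p below 0.05. Those were Il7r at 0.61 ± 0.21, Foxo1 at 0.42 ± 0.17 and Dapl1 at 0.92 ± 0.35, each with an adjusted p of 0.997. This comparison shares all its libraries with those above and adds no separate evidence, and the falls called in WT alone are thus not shown to differ from KO. The sign of Bach2 was reversed without naive WT replicate 1, naive KO replicate 2, TFH WT replicate 1 or TFH KO replicate 2, and that of Foxp1 without naive KO replicate 2.

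**Figure D5:**
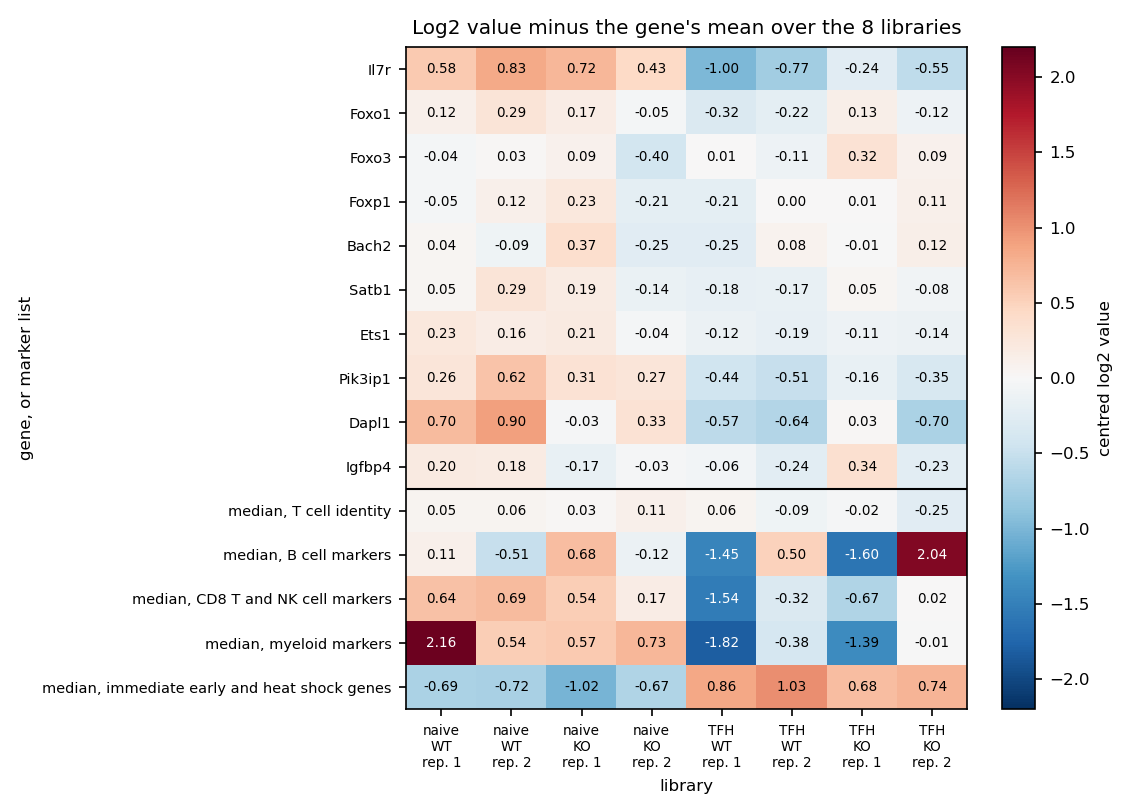
Log2 value minus the gene's mean over the 8 libraries (colour and printed number) for the 10 members, and the median of the same over marker lists, with libraries as columns. Il7r is positive in all 4 naive and negative in all 4 TFH libraries, while the B cell row runs from 2.04 to -1.60 within the TFH libraries and the myeloid row peaks at 2.16 in naive WT replicate 1.

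The members differed in shape across the 8 libraries. The root-mean-square difference between centred profiles was 0.07 for Foxo1 and Satb1, the most alike pair, and 0.10 for Bach2 and Foxp1. Il7r was nearest to Pik3ip1 (0.31) and Dapl1 (0.34) and farthest from Foxo3 (0.73). Among 10271 genes with a mean log2 of at least 8, with predicted, numbered and antigen receptor segment names left out, those nearest to Il7r were Rnf144a (0.12), Zfp85 (0.13), Padi2 (0.15), Sorcs2 (0.15) and Smug1 (0.15), against a median of 0.69 over all of them. Those nearest to Foxo1 were Pcnx4 (0.05), Hbp1 (0.06), Rgs11 (0.06), Lrrc8c (0.06) and Eral1 (0.06), against a median of 0.25. Those nearest to Pik3ip1 were Dand5 (0.06), Mturn (0.07), Zfp51 (0.08), Ctu1 (0.08) and Mlh3 (0.08), against 0.41. Genes with little variation score as near to any flat profile, so these values are descriptions.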

How the data were processed

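For each library the authors deposited log2 expression values, from 1.16 to 19.48, of 14042 gene symbols. Per the labels' protocols, total RNA was sequenced as single-end 51 bp reads, and per the submitters' processing notes BWA and the build mm10 were used. How reads were counted, annotated and normalized is not given in the sources used here. Sorted values of the libraries lie within 0.03 of each other's median above the lowest percentile, so the deposited log2 values had been quantile normalized. Depth is thereby unknown, and differences in total RNA are removed.

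limma 3.58.1 (R 4.3.3) was fitted to the log2 values of all genes and libraries with a mean per group (4 residual degrees of freedom), with trend and robust moderation. P-values were adjusted over 14042 genes for each of 5 comparisons and called below 0.05. An exact permutation test of 2 against 2 libraries cannot go below 0.33. The labels do not say that libraries came from separate animals, so the spread that p-values measure may be technical. No 2 libraries held the same values. Alternatives changed the moderation, the groups fitted, a low-value filter (log2 of 6), a pseudocount (64), the scaling (ribosomal protein or T cell identity genes), a B cell marker covariate and the libraries included. Scaling shifted each library to an equal median level of the listed genes, which need not remove their median difference. The ribosomal protein genes' median TFH against naive difference went from 0.01 to 0.08 in WT and from -0.08 to 0.04 in KO. That of the T cell identity genes went from -0.05 to 0.34 and from -0.17 to 0.16.

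The members and gene lists were chosen with earlier results of these data known. All members are named, with up to 4 called genes per list by p in WT and a fixed set (among them Ccr7, S1pr1, Klf2, Tcf7, Lef1, Bcl2, Il2rg, Akt1 and Foxo4). Part of the genes this rule names is left out for length, and some are not reported here. Protein sequences were not used here.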

Additional observations from a re-analysis of the deposited data

How the results depend on the processing

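Il7r kept its call in both genotypes under all 17 alternatives, and Pik3ip1 in WT. The number of members called in WT was 5, and 3 with ribosomal protein scaling or T cell identity scaling; in KO it was 2, both lower, and 1 with ribosomal protein scaling or without replicate 2 of both TFH groups. With T cell identity scaling, where 4701 of 14042 genes were called higher in KO, 3 members were called there, Il7r lower and Foxo3 (0.69) and Igfbp4 (0.49) higher. The number of members called was 7 in WT and 2 in KO with only the compared groups, and 6 and 3 with the B cell covariate. With single libraries left out it ran from 3 to 6 in WT and 1 to 3 in KO. Genes called numbered 3694 in WT and 2744 in KO, against 7294 and 5165 with T cell identity scaling, 2104 and 1225 without replicate 2 of both TFH groups, and 1991 to 3726 and 1399 to 2683 with single libraries left out. The share of calls that were higher went from 48% to 58.7% with ribosomal protein scaling and 90.9% with T cell identity scaling in WT, and from 46.6% to 68% and 91% in KO. With T cell identity scaling the T cell identity genes themselves stood at a median of 0.34 in WT and 0.16 in KO. Genes called between KO and WT TFH numbered 1 with only the compared groups and 0 to 2 with single libraries left out; between naive groups they numbered 7 to 17. For the interaction they numbered 0 without the mean-variance trend, 1 with ribosomal protein scaling and 1 to 7 with single libraries left out.

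With T cell identity scaling the TFH against naive difference turned positive in WT for Foxo3 (0.35), Foxp1 (0.26), Bach2 (0.33), Satb1 (0.046), Ets1 (0.042) and Igfbp4 (0.055), and in KO for Foxo1 (0.28), Bach2 (0.34), Satb1 (0.30) and Ets1 (0.13), while Foxp1 in KO against WT naive stood at 0.042. With ribosomal protein scaling it turned in WT for Foxo3 (0.021) and Bach2 (0.0070) and in KO for Foxo1 (0.069), Bach2 (0.13) and Satb1 (0.087). Without replicate 2 of both TFH groups it was 0.019 for Foxo3 in WT, and 0.066 for Foxo1, 0.025 for Satb1 and -0.0062 for Foxp1 in KO; with the B cell covariate Bach2 in KO was 0.0056. None of these values of Foxo1, Satb1, Ets1, Bach2 or Foxp1 was called.

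With single libraries left out, the sign turned within these ranges: in WT Foxo3 -0.11 to 0.019 and Bach2 -0.22 to 0.11; in KO Foxo1 -0.18 to 0.066, Foxp1 -0.17 to 0.27, Bach2 -0.31 to 0.31, Satb1 -0.21 to 0.13 and Igfbp4 -0.13 to 0.44. For KO against WT in TFH they were Bach2 -0.022 to 0.31, Dapl1 -0.096 to 0.64 and Igfbp4 -0.086 to 0.49, and in naive Il7r -0.27 to 0.022, Foxo3 -0.39 to 0.096, Foxp1 -0.24 to 0.20, Bach2 -0.23 to 0.39, Satb1 -0.31 to 0.019, Ets1 -0.24 to 0.0098 and Pik3ip1 -0.33 to 0.031. For the interaction they were Foxp1 -0.036 to 0.40 and Bach2 -0.25 to 0.37. The cause of these changes was not tested. A group left with 1 library is assumed to vary like the others. No paired analysis was run, because the labels carry no replicate numbers and those used here only follow the order of the samples. Whether TFH libraries of like number were handled together is not stated and was not tested. Depth is unknown, so limits from counting cannot be given.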
